A study of Rattus norvegicus with 8 samples.

Results

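Mx1, Mx2, Ifit1bl, Ifit2, Ifit3, Rsad2, Cmpk2 and Ifi44l are effector genes of the interferon response, and they were followed here in rat heart muscle cells that overexpressed the ubiquitin ligase HectD3. They were taken by gene symbol from a table of 15976 transcripts with 12784 symbols. The 8 genes hold 10 of these transcripts, 3 of them from Mx2, and each symbol has 1 gene ID. All 8 genes were above the filter on low values and were tested, so none was left out. The choice of the genes used no measured value of its own, although earlier results of these data were known when it was made.

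Neonatal rat ventricular cardiomyocytes (NRVCMs), the contractile muscle cells of the newborn ventricle in primary culture, were purified on a density gradient, grown in medium with serum for 24 h and then transduced with an adenovirus for 72 h in serum-depleted medium. The control virus carried LacZ, the gene of a bacterial enzyme, and the other virus carried HectD3; 4 RNA-seq libraries were made for each, named here LacZ 1 to 4 and HectD3 1 to 4. Both groups had therefore received an adenovirus, and no library of cells without virus was analysed here. The cells came from newborn rats, given as Wistar in the methods and as Sprague Dawley in the reporting summary, and fibroblast and leukocyte markers given below show that cells of other types were present. The libraries are described as biological replicates, but the labels do not say whether they came from separate cultures or animals. What the p-values measure is then no more than the variation among these libraries, part of which may be technical.

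Mx proteins are dynamin-like GTPases that assemble on viral particles and nucleoproteins and hold up their replication. IFIT proteins bind viral RNA or other IFIT proteins and limit its translation. Rsad2 (viperin) is a radical SAM enzyme that converts the nucleotide CTP into a chain terminator of viral polymerases, and Cmpk2 is a mitochondrial nucleotide kinase that can supply that substrate. Ifi44l is an interferon-induced gene whose product is less well understood. Transcription of all these genes is typically switched on when interferon signalling brings its transcription factors to response elements near their start sites, and cells of most tissues, cardiomyocytes included, can answer in this way.

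The measure is FPKM, fragments scaled by transcript length and by the size of the library, summed over the transcripts of a gene. Hectd3, the overexpressed gene, was at 6.18 to 7.89 FPKM in the LacZ libraries and at 547, 915, 590 and 161 FPKM in HectD3 1 to 4 (log2 fold change 5.86, standard error 0.44, adjusted p = 0.00292; exact two-sided permutation p = 0.0286, the lowest value possible for 4 libraries against 4). HectD3 4 thus held the least of it. The first principal component of all genes, with 58.4% of the variance, set LacZ 1 (-40.8), LacZ 2 (-27.1) and HectD3 4 (-13.4) apart from the other 5 libraries (9.0 to 18.8), across the groups, and the fold changes of the 8 genes and the ratios of neighbouring genes are given below with and without these 3 libraries. The other results rest on all 8 libraries. Cardiomyocyte markers (13 of a list of 14 in the table, Ttn was not in it) summed to 19290 to 27138 FPKM with LacZ and 21041 to 26987 FPKM with HectD3; of them only Myh6 (log2 fold change -0.18) and Myh7 (-0.19) had an unadjusted p under 0.05, both in the lower direction. Macrophage and leukocyte markers (14 of 20 in the table) summed to 445 to 584 FPKM with LacZ and 489 to 622 FPKM with HectD3. The median log2 fold change of these 14 was 0.13, and Adgre1 was higher (unadjusted p = 0.0312); none of the 14 was at 0, and Itgam, Cd163, Cd3e, Cd79a, Ms4a1 and Nkg7 were not in the table. Fibroblast markers summed to 1793 to 2047 and 1777 to 2026 FPKM, with 0 of 9 under an unadjusted p of 0.05, and endothelial markers to 136 to 162 and 145 to 171 FPKM. Of the 9 endothelial markers, 1 was higher at that threshold (Emcn, unadjusted p = 0.0116) and 0 were lower. Their median log2 fold change was 0.10. The part of these cell types in the results was not tested. In bulk libraries such as these, fewer cells of a type and less RNA per cell cannot be told apart, and the depth of each library is unknown because the table holds no counts.

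With HectD3, 7 of the 8 effector genes were at a lower level in every library than in any LacZ library; of all 12567 genes tested, 2.81% were separated in this way. The same 7 had an unadjusted p under 0.05 in the limma fit across all genes, where 4.28% of all genes were lower at that threshold. No member lay above every LacZ library (2.44% of all genes did), and none was among the 2.87% of all genes that were higher at the same threshold. With scaling to TPM, 747 of all genes were lower and 176 higher at that threshold, in place of 538 and 361. After adjustment over all genes in limma, 0 of the 8 passed an adjusted p of 0.05, and the other settings gave 0 to 3. An ordinary linear model with library size also gave 0, but in it Hectd3 itself did not pass (log2 fold change 5.84, adjusted p = 0.19). Library size there is the summed FPKM of the genes at or below the upper quartile of a library, not its sequencing depth. In limma the shares of all genes past the adjusted threshold were 0% in the lower direction and 0.00796% in the higher one, which is Hectd3 alone. The median log2 fold change of the 8 was -0.80, on the log2(FPKM + 1) scale, beside a median of -0.02 and quartiles of -0.15 and 0.08 for all genes. The exception was Ifit1bl, whose groups overlapped. The FPKM of the 8 genes by library shows this split.

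**Figure D1:**
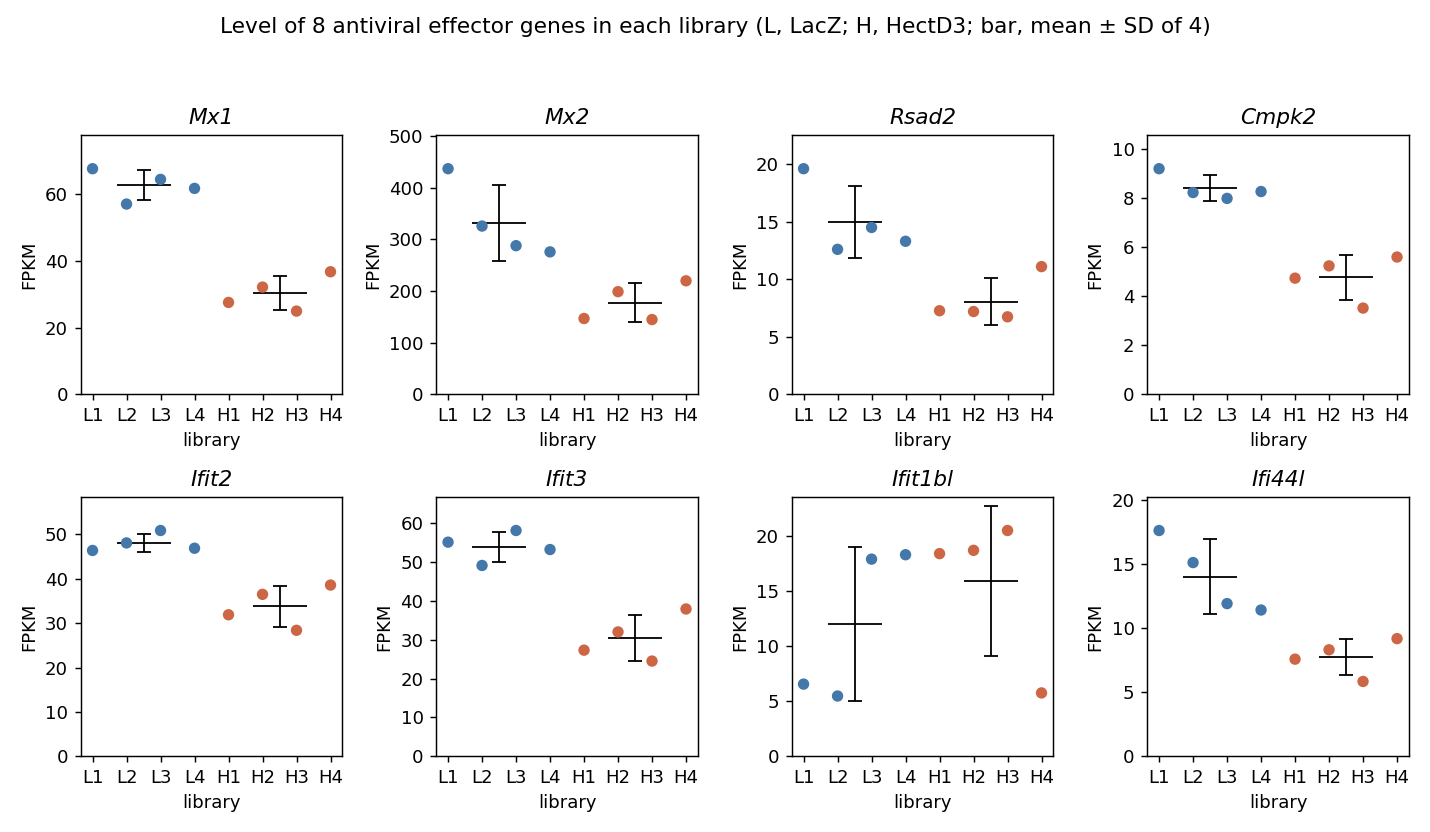
FPKM (vertical axis, linear, from 0) of each of the 8 genes in the 4 LacZ libraries (L1 to L4, blue) and the 4 HectD3 libraries (H1 to H4, red), with the horizontal bar at the mean and the whisker at 1 SD of 4. In 7 panels every red point lies below every blue point, while Ifit1bl is between 5.47 and 6.55 FPKM in L1, L2 and H4 and between 17.9 and 20.5 FPKM in the other 5 libraries.

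The sequence before the start sites was read for 6 of the 8 genes from RefSeq (rat assembly GRCr8, whose coordinates differ from those of the deposited table, and of which Mx2 and Ifit2 were not matched). The windows ran from 250 bases before to 50 bases after each start and were searched on both strands for GAAA followed by any 2 bases (NN) and GAAA again, the core of the interferon-stimulated response element, which occurs in 3.92% of 33469 such windows of all genes. The window of Ifit3, the IFIT gene furthest below its LacZ level, holds 1 match, 44 bases before the start. Its 250 bases before the start (chr1:241527076-241527325, plus strand), with the match in capitals as the reverse complement, are shown because the match is the element searched for in the promoter of a gene whose libraries did not overlap.
Ifit3: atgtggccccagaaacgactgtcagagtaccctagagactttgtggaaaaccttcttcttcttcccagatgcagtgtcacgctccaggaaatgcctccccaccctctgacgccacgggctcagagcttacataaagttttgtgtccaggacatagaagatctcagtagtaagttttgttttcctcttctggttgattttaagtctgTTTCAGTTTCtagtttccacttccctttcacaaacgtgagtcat
Rsad2 has 1 match, 147 bases before its start site, within the 125 bases that precede the gene record (chr6:48788246-48788370, minus strand), and for the genes after it the bases around each match are given so that the matches can be compared.
Rsad2: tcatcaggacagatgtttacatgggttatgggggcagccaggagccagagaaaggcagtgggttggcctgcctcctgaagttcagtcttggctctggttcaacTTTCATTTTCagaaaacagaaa
Ifi44l has 2 matches, 91 bases (chr2:243328622-243328651, plus strand) and 59 bases (chr2:243328654-243328683, plus strand) before its start, of which the further one is the reverse complement.
Ifi44l, further: tctgcttggcTTTCTTTTTCtcatcctgtt
Ifi44l, nearer: ttccagtgagGAAAATGAAAgtaaagggca
Ifit1bl has 2 start sites in the RefSeq table. The window of the outer one holds no match, and that of the other, 36921 bases into the gene record, holds 1, 120 bases before that start (chr1:241543656-241543685, minus strand).
Ifit1bl: cctctctaggTTTCGTTTTCtctaagctgg
Ifit1bl, the gene whose groups overlapped, thus has these letters near 1 of its starts as well. In RefSeq the start with the match is at 241543555, the outer start at 241580476 and the start of Ifit3 at 241527326. The deposited record of Ifit1bl begins, on its minus strand, at 252922486, and that of Ifit3 at 252906234. The start with the match is therefore the one at a similar distance from Ifit3. Neither Mx1 nor Cmpk2 had a match in its window. The start used for Cmpk2 lies 700 bases inside its gene record, so its whole window is within the record and the sequence before it was not searched. That of Mx1 lies 93 bases inside, with 157 bases of the window before the record. A shorter form with any 1 base (N) between the copies of GAAA, chosen after the sequences were seen and present in 3.50% of all windows, occurred 86 bases (chr6:48802754-48802783, plus strand) and 47 bases (chr6:48802793-48802822, plus strand) before the start of Cmpk2 and not in Mx1.
Cmpk2, further: ctgccttcacTTTCGTTTCcaggggatcct
Cmpk2, nearer: atcaccgcggTTTCGTTTCcgaggcgtggc
Such a match is a description of the letters and not evidence of a bound site.

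The Mx genes are considered first. Mx1, which encodes a GTPase that acts in the nucleus of rodent cells, lies on chromosome 11 from 37891156 to 37914983 on the minus strand (coordinates of the deposited table; the sources used here do not name its build). LacZ 1 to 4 held 67.7, 57.1, 64.5 and 61.8 FPKM of it. In HectD3 1 to 4 it was at 27.6, 32.2, 25.0 and 36.8 FPKM, which is 44.0%, 51.2%, 39.8% and 58.7% of the LacZ mean. The highest HectD3 library lay well under the lowest LacZ library. The log2 fold change was -1.03 (standard error 0.12, unadjusted p = 9.78e-06, adjusted p = 0.0615), and 0 of the genes with a lower level had a smaller p. With its only transcript tested among all transcripts the adjusted p was 0.043, and across the other settings it ran from 0.00251 to 0.835, as described in the closing section.

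Mx2, whose product acts in the cytoplasm of rat cells, lies 120 kb away on the same chromosome, from 38035450 to 38059950 on the plus strand. It was the most abundant of the 8 genes in both groups, at 437, 326, 288 and 276 FPKM in LacZ 1 to 4 and at 147, 199, 145 and 220 FPKM in HectD3 1 to 4. LacZ 1 was the highest of all, and the groups did not overlap (log2 fold change -0.90, standard error 0.18, unadjusted p = 0.000693, adjusted p = 0.289). Mx1 and Mx2 are similar in sequence, and the sources used here do not say how reads that match both were assigned.

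The 3 transcripts of Mx2 differed in how they shared this level among the libraries. Mx2-201 was at 160, 314, 278 and 265 FPKM in LacZ 1 to 4 and at 142, 78.7, 140 and 84.8 FPKM in HectD3 1 to 4. Mx2-202 was at 272 FPKM in LacZ 1 but at 7.76 to 8.66 FPKM in the other LacZ libraries, and at 3.54, 118, 3.82 and 133 FPKM in HectD3 1 to 4. Mx2-203 stayed between 0.685 and 5.27 FPKM. Mx2-202 therefore made up 62.2% of the gene in LacZ 1, 59.2% in HectD3 2 and 60.5% in HectD3 4, and from 2.42% to 2.82% in the other 5 libraries, so that the libraries high in it came from both groups and from both sides of the split on the first principal component.

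The transcripts overlap for nearly their whole span: Mx2-201 starts 246 bases and ends 265 bases after Mx2-202. Tested on its own, Mx2-201 had a log2 fold change of -1.19 (standard error 0.26, unadjusted p = 0.00166, adjusted p = 0.396), with groups that did not overlap; of all 15437 transcripts tested, 3.98% were lower at an unadjusted p under 0.05. Mx2-202 had a log2 fold change of 0.19 with a standard error of 1.54, and the sum over the transcripts had a standard error of 0.18. Shares that differ this much between libraries were also seen elsewhere in the table: of 2055 genes with several transcripts and a mean of at least 5 FPKM, 204 (9.93%) had a transcript whose share ranged over more than 50 percentage points, and the median range was 11.6 points against 60.3 points for Mx2.

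**Figure D2:**
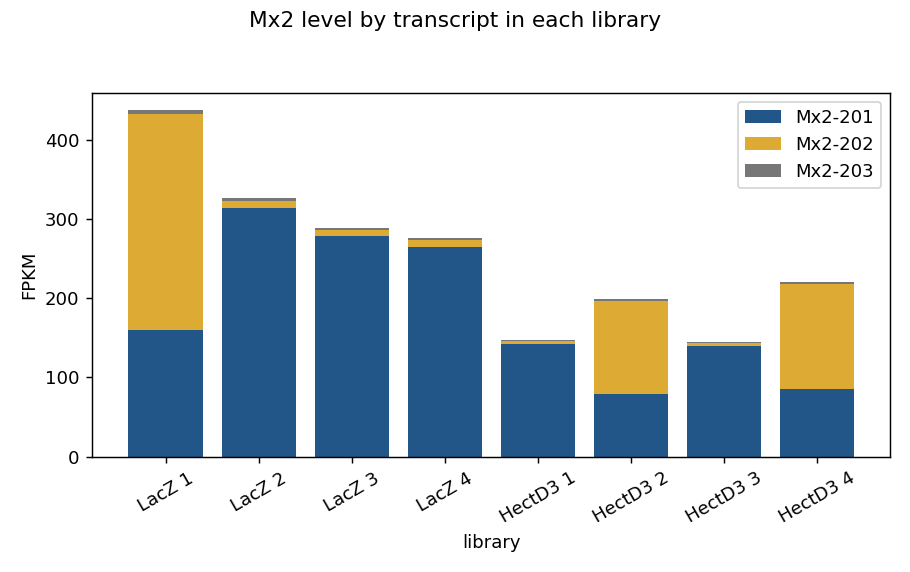
FPKM of Mx2 (vertical axis, linear, from 0) in each of the 8 libraries, stacked by transcript (blue, Mx2-201; yellow, Mx2-202; grey, Mx2-203). Mx2-202 makes up 59.2% to 62.2% of the bar in LacZ 1, HectD3 2 and HectD3 4 and under 3% in the others, whereas the height of the whole bar is lower in all 4 HectD3 libraries.

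The ratio of Mx1 to Mx2 was 0.155, 0.175, 0.224 and 0.224 in LacZ 1 to 4 and 0.188, 0.162, 0.173 and 0.167 in HectD3 1 to 4. The groups overlapped, and the log2 ratio differed by -0.16 (two-sided exact permutation test over 70 assignments, p = 0.314, adjusted over the 5 neighbouring pairs p = 0.393). The size of this difference depended on the libraries: it was -0.26 without LacZ 1, -0.08 without LacZ 3 or without LacZ 4, and -0.36 for LacZ 3 and 4 against HectD3 1 to 3. Its direction turned, to 0.14, when only the most abundant transcript of each gene was used. No other gene of the table lies between Mx1 and Mx2. Bace2, a protease gene 10.3 kb before Mx1, had a log2 fold change of 0.20 (unadjusted p = 0.173), and Prdm15, a zinc finger gene 234 kb after Mx2, of -0.14 (unadjusted p = 0.359), with overlapping groups in both.

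Of the nucleotide enzymes, Rsad2 lies on chromosome 6 from 45655954 to 45669148 on the minus strand. Its levels were 19.6, 12.6, 14.5 and 13.3 FPKM in LacZ 1 to 4 and 7.27, 7.20, 6.74 and 11.1 FPKM in HectD3 1 to 4. HectD3 1 to 3 lay close together and HectD3 4 stood above them, still under the lowest LacZ library. The log2 fold change was -0.83 (standard error 0.18, unadjusted p = 0.00105, adjusted p = 0.324).

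Cmpk2 lies 14.1 kb from Rsad2, from 45683234 to 45694822 on the plus strand, so that the genes point away from each other with no gene of the table between them. It was the least abundant member in both groups, at 9.20, 8.23, 7.99 and 8.27 FPKM in LacZ 1 to 4 and at 4.74, 5.24, 3.52 and 5.60 FPKM in HectD3 1 to 4. That is 8.42 ± 0.534 FPKM (SD, n = 4) against 4.77 ± 0.907 FPKM (SD, n = 4), and HectD3 3 was the lowest library. The log2 fold change was -0.72 (standard error 0.13, unadjusted p = 0.00037, adjusted p = 0.269), or 56.7% of the LacZ level.

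Rsad2 exceeded Cmpk2 in every library, by a ratio of 1.54 to 2.13 with LacZ and 1.37 to 1.97 with HectD3. The log2 ratio differed by -0.07 between the groups (exact permutation p = 0.657, adjusted p = 0.657), and this small difference turned to 0.03 without LacZ 1 or without HectD3 2 and was -0.10 for LacZ 3 and 4 against HectD3 1 to 3. The genes on either side, Rnf144a, a ubiquitin ligase gene 26.8 kb before Rsad2 (log2 fold change -0.01, unadjusted p = 0.914), and Sox11, a transcription factor gene 935 kb after Cmpk2 (0.18, unadjusted p = 0.306), had overlapping groups.

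The IFIT genes of this set lie within a short stretch of chromosome 1, in the order Ifit2, Ifit3 and Ifit1bl. Ifit2, whose human counterpart binds AU-rich RNA, spans 252894663 to 252900726 on the plus strand. Its FPKM stayed within 46.4, 48.1, 50.9 and 46.9 over LacZ 1 to 4, a narrow range, and was 31.9, 36.5, 28.4 and 38.6 FPKM in HectD3 1 to 4. Of the 7 separated genes it stayed closest to its LacZ level, at 70.4% (log2 fold change -0.50, standard error 0.10, unadjusted p = 0.000667, adjusted p = 0.289).

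Ifit3, which partners other IFIT proteins, starts 5507 bases beyond Ifit2 and spans 252906234 to 252911382 on the same strand. The LacZ libraries 1 to 4 held 55.1, 49.1, 58.1 and 53.2 FPKM, and Ifit3 was at 27.3, 32.0, 24.5 and 37.9 FPKM in HectD3 1 to 4, with no overlap. The log2 fold change was -0.82 (standard error 0.13, unadjusted p = 0.000115, adjusted p = 0.221), or 56.4% of the LacZ level. The adjusted p was 0.0468 without HectD3 4 and ran from 0.0133 to 0.873 over all settings.

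The neighbours Ifit2 and Ifit3 stood in opposite order in the groups. Ifit2 was below Ifit3 in every LacZ library, with ratios of 0.842, 0.981, 0.876 and 0.881, and above it in every HectD3 library, with ratios of 1.17, 1.14, 1.16 and 1.02. The log2 ratio was higher by 0.33 with HectD3 (exact permutation p = 0.0286, the smallest the design allows, adjusted over the 5 pairs p = 0.143). Of the 5 pairs of neighbouring members, it was the only one whose ratios did not overlap between the groups. This pair did not pass the adjusted threshold. Leaving out any 1 library kept the difference between 0.30 and 0.37, and it was 0.40 for LacZ 3 and 4 against HectD3 1 to 3.

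Ifit1bl, a gene of the IFIT1-like branch, spans 252914684 to 252922486 on the minus strand, after a gap of 3301 bases beyond Ifit3. Its level was 6.55, 5.47, 17.9 and 18.3 FPKM over LacZ 1 to 4 and 18.4, 18.7, 20.5 and 5.75 FPKM in HectD3 1 to 4. The low libraries were LacZ 1, LacZ 2 and HectD3 4, the same 3 that stood apart on the first principal component, and the virus did not order the values. The log2 fold change was 0.41 with a standard error of 0.47 (unadjusted p = 0.404, adjusted p = 0.809). Among LacZ 3 and 4 and HectD3 1 to 3, a comparison chosen after the data were seen, the means were 18.1 and 19.2 FPKM, a log2 fold change of 0.08 (adjusted p = 0.827, 0.573 to 1.0 over all settings). With the first principal component as a covariate the sign turned to -0.10 (standard error 0.20).

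Ifit1, the gene of the family that recognises the 5′ end of foreign RNA, is the next gene of the table, 21.6 kb beyond Ifit1bl. It lay under the filter on low values and was not tested, at 0.179, 0.144, 0.834 and 0.579 FPKM in LacZ 1 to 4 and at 0.33, 0.32, 0.473 and 0.125 FPKM in HectD3 1 to 4. At these low levels, its lowest values were again those of LacZ 1, LacZ 2 and HectD3 4. The ratio of Ifit3 to Ifit1bl was 2.92 to 8.97 with LacZ and 1.19 to 6.59 with HectD3 (log2 difference -1.29, exact permutation p = 0.143, adjusted p = 0.286), and that of Ifit2 to Ifit1bl 2.57 to 8.80 and 1.38 to 6.72 (log2 difference -0.97, exact permutation p = 0.171, adjusted p = 0.286). Without HectD3 4 these differences were -1.84 and -1.47 (exact permutation p = 0.0571 for each, the smallest that 4 libraries against 3 allow, adjusted p = 0.0952). Without LacZ 2 the difference for Ifit2 to Ifit1bl was -0.66. For LacZ 3 and 4 against HectD3 1 to 3 the differences were -1.09 and -0.69. Lipa, the lysosomal acid lipase gene 44.8 kb before Ifit2, had a log2 fold change of 0.09 (unadjusted p = 0.238). Since the IFIT genes resemble each other in sequence, reads shared among them may have been split among them, in a way not stated by the authors.

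**Figure D3:**
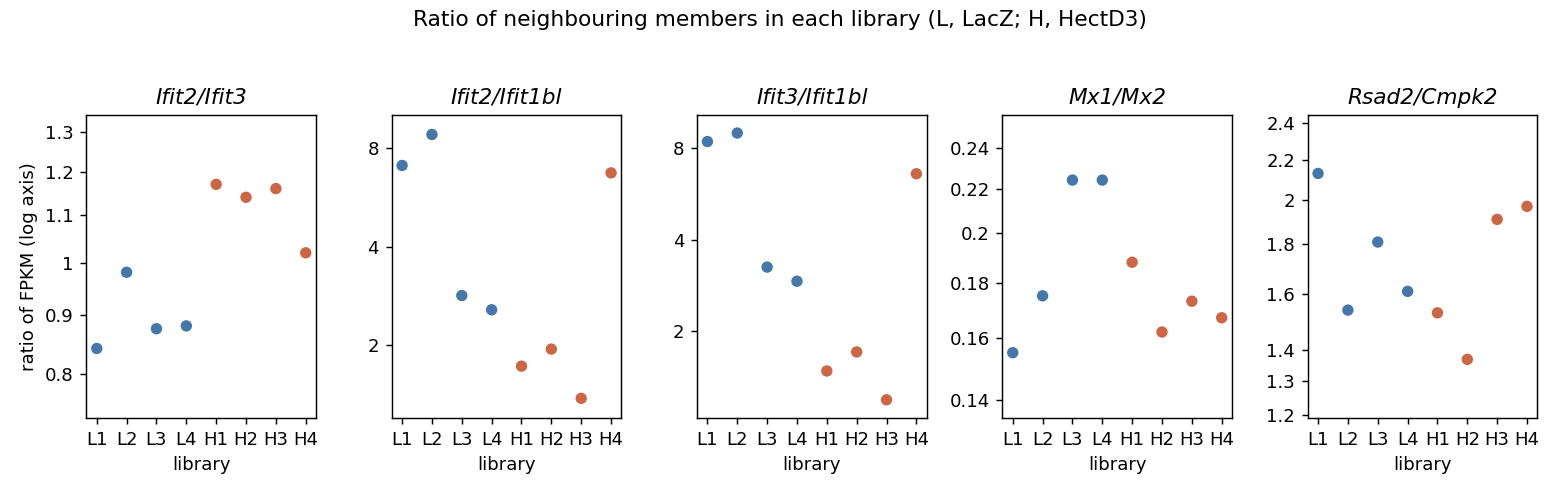
Ratio of the FPKM of neighbouring genes (vertical axes, log scale, a different range in each panel) in LacZ 1 to 4 (L, blue) and HectD3 1 to 4 (H, red). The Ifit2 to Ifit3 ratio is under 1 in all blue and above 1 in all red points, and the ratios to Ifit1bl are highest in L1, L2 and H4.

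**Figure D4:**
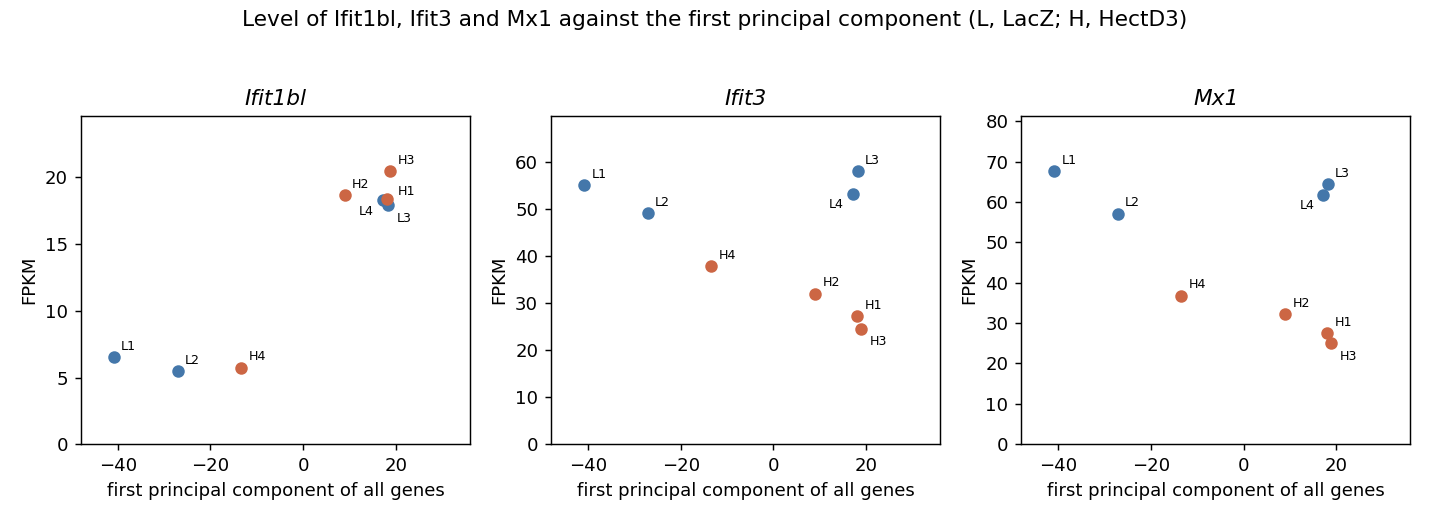
FPKM of Ifit1bl, Ifit3 and Mx1 (vertical axes, linear, from 0) against the first principal component of all genes (horizontal axis, no unit), 1 point a library (L1 to L4 blue, LacZ; H1 to H4 red, HectD3). Ifit1bl is at 5.47 to 6.55 FPKM in the 3 libraries with negative scores and at 17.9 or more in the others, whereas Ifit3 and Mx1 are lower in the red points on both sides.

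Ifi44l lies on chromosome 2 from 256964860 to 256978668 on the plus strand. Levels of 17.6, 15.1, 11.9 and 11.4 FPKM were found in LacZ 1 to 4 and of 7.57, 8.30, 5.83 and 9.17 FPKM in HectD3 1 to 4. The groups did not overlap, although LacZ 1 and 2 exceeded LacZ 3 and 4 (log2 fold change -0.78, standard error 0.17, unadjusted p = 0.00114, adjusted p = 0.327). Its family member Ifi44, its neighbour at a distance of 49.3 kb and not among the 8, was at 106, 92.9, 70.9 and 72.4 FPKM and at 49.1, 53.9, 44.6 and 68.6 FPKM in the same order (log2 fold change -0.65, standard error 0.16, unadjusted p = 0.00307, adjusted p = 0.454). The ratio of Ifi44l to Ifi44 was 0.165, 0.163, 0.168 and 0.157 in LacZ 1 to 4. In HectD3 1 to 4 it was 0.154, 0.154, 0.131 and 0.134, so the groups did not overlap. The mean log2 ratio was -2.62 with LacZ and -2.81 with HectD3. Because Ifi44 is not a member, this pair was outside the neighbouring pairs compared by permutation, and its difference was not tested. On the other side, 27.2 kb away, the prostaglandin receptor gene Ptgfr had a log2 fold change of -0.10 (unadjusted p = 0.511). Of the 8 genes that flank the chromosomal groups, 7 were tested and Ifi44 alone was lower at an unadjusted p under 0.05.

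**Figure D5:**
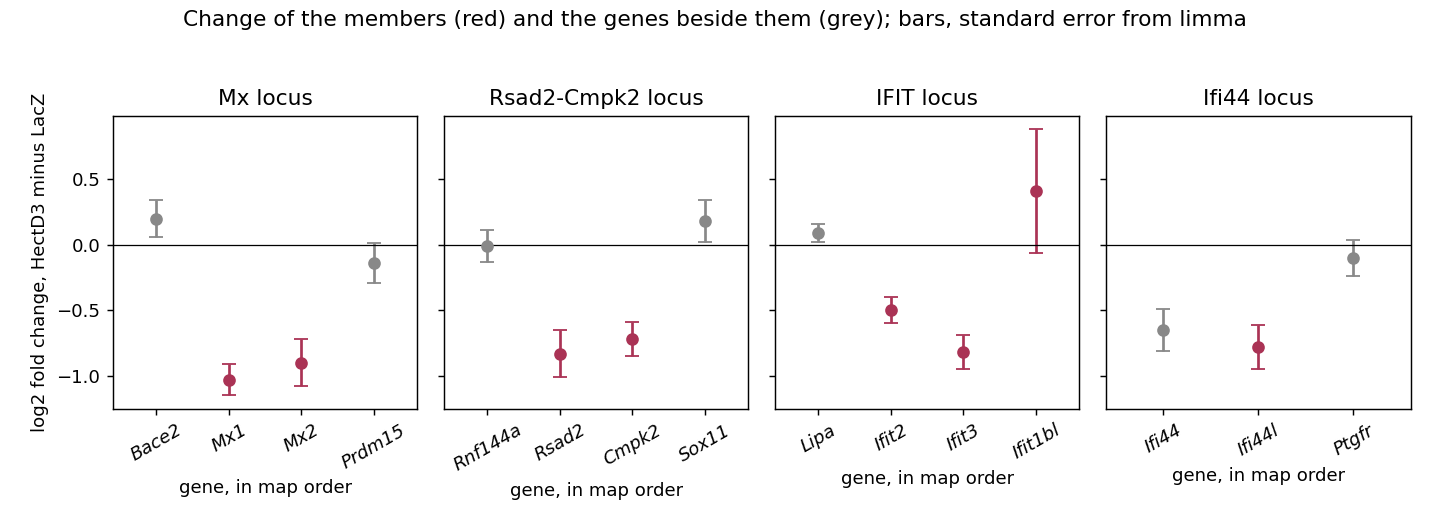
Log2 fold change, HectD3 minus LacZ (vertical axis), of the 8 genes (red) and of the nearest tested genes beside them (grey), in the order of the table's coordinates at 4 loci and not to scale along the horizontal axis; bars are 1 standard error from limma. Every red point except Ifit1bl lies between -1.03 and -0.50, and every grey point except Ifi44 lies between -0.14 and 0.20.

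Within the LacZ group the levels ran in the order Mx2, Mx1, Ifit3, Ifit2, Rsad2, Ifi44l, Ifit1bl and Cmpk2, from a mean of 332 FPKM to 8.42 FPKM. The ranges of the libraries overlapped for Mx1 with Ifit3, for Ifit3 with Ifit2, and for each successive neighbour from Rsad2 to Cmpk2, so that only Mx2 and Mx1, and Ifit2 and Rsad2, were separated as neighbours. With HectD3 the order was Mx2, Ifit2, Mx1, Ifit3, Ifit1bl, Rsad2, Ifi44l and Cmpk2. There the ranges of Ifit2, Mx1 and Ifit3 overlapped, and Ifit1bl overlapped Rsad2, which overlapped Ifi44l, whereas Mx2 and Ifit2, Ifit3 and Ifit1bl, and Ifi44l and Cmpk2 were separated.

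The 7 separated genes shared their highest and lowest HectD3 library but not the whole order of the libraries. HectD3 4 was the highest and HectD3 3 the lowest HectD3 library in 7 of 7, and LacZ 1 was the highest LacZ library in 5 of 7, whereas it was the lowest for Ifit2. The share of all genes with this order of libraries was not counted. On the first principal component HectD3 4 (-13.4) and HectD3 3 (18.8) were also the ends of the HectD3 group. As a median over the 7 genes, HectD3 1 to 4 stood at 50.7%, 59.3%, 43.6% and 66.5% of the LacZ mean, so the library with the least Hectd3 had the highest level of these genes. HectD3 2, with the most Hectd3, did not have the lowest. The 4 libraries are too few to test an order, and HectD3 4 also stood apart on the first principal component.

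Without LacZ 1, LacZ 2 and HectD3 4, a choice made after the data were seen, the same 7 genes were lower at an unadjusted p under 0.05, beside 4.32% of all genes, and did not overlap, beside 11.2% of all genes. Mx1 then had a log2 fold change of -1.14 (adjusted p = 0.00732, 0.00251 to 0.835 over all settings), Ifit3 of -0.98 (adjusted p = 0.0285, 0.0133 to 0.873) and Rsad2 of -0.89 (adjusted p = 0.0334, 0.0324 to 0.873). These 3 passed an adjusted p of 0.05, where 0.032% of all genes did in that direction. Mx2, at -0.80, Cmpk2, at -0.74, Ifi44l, at -0.63, and Ifit2, at -0.59, did not.

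The profile of the genes over the 8 libraries, as log2(FPKM + 1) less its own mean, was compared by root mean square distance. The 21 pairs among the 7 separated genes were 0.11 to 0.30 apart, with a median of 0.19, and the closest, Mx1 and Ifit3, lie on different chromosomes. The 7 pairs with Ifit1bl were 0.89 to 1.13 apart. Of 11865 genes outside the set with a mean of at least 1 FPKM, those nearest to the mean profile of the 8 were RGD1563091 (0.061), Oasl2 (0.0955), Parp12 (0.0974), Znfx1 (0.0992) and Isg15 (0.11). Oasl2 is of the oligoadenylate synthetase family, Parp12 and Znfx1 act against RNA viruses, and Isg15 is a ubiquitin-like modifier. The groups of these 5 genes did not overlap, but they were chosen for likeness to a profile that is high in all LacZ and low in all HectD3 libraries, so this follows from the choice. RGD1563091 was at 17.9 to 19.5 FPKM with LacZ and 11.1 to 13.4 FPKM with HectD3.

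Among 60 other interferon-stimulated genes (of a list of 66, all 60 tested), 48 had an unadjusted p under 0.05 in the lower direction and 1 in the higher (4.28% and 2.87% of all genes). For 36 of the 60, no HectD3 value reached the lowest LacZ value, beside 2.81% of all genes, and 0 of the 60 passed the adjusted p. Their median log2 fold change was -0.47, beside -0.80 for the 8 effectors, and this difference was not tested. The smallest p values belonged to Isg15, at -0.77 (unadjusted p = 5.52e-05), Uba7, the enzyme that activates Isg15, at -0.98 (unadjusted p = 0.000268), and Ddx58, the gene of the viral RNA sensor RIG-I, at -0.76 (unadjusted p = 0.000311). Ifitm1, whose product blocks the entry of viruses, was the higher one, at 0.44 (unadjusted p = 0.0461), with overlapping groups and its lowest values, 37.4 and 46.8 FPKM, in LacZ 1 and LacZ 2.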

How the data were processed

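RNA of NRVCMs was measured in 4 LacZ and 4 HectD3 libraries, grouped by their labels. Libraries of oligo(dT)-selected RNA were made with a strand-specific kit, trimmed with cutadapt, aligned with HISAT2 and quantified with StringTie, and the authors computed FPKM with Ballgown. For these tools the version, and for the table the build and annotation, are not given in the sources. The deposited table analysed here holds FPKM per transcript and no counts. Low values (under 0.3 FPKM) showed no common step for 1 read (at most 4.44% of at least 72 transcripts compared between libraries shared 1 ratio, in bins of 1%), so depth is unknown and no counting error is given. FPKM summed to 546642 to 563051 in LacZ and 554960 to 595172 in HectD3 libraries. No 2 libraries shared identical values, and log2 values correlated at 0.964 to 0.995.

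FPKM was summed by symbol (for 96 of 12784 symbols over several gene IDs). In R version 4.3.3, limma version 3.58.1 was applied to log2(FPKM + 1) of genes whose mean reached 0.5 FPKM, with trend, two-sided, with Benjamini-Hochberg adjustment over 12567 genes; adjusted p-values are from this fit. On this scale the change of low genes is understated. Neighbouring members within 500 kb were compared by an exact permutation test of the log2 ratio, adjusted over 5 pairs. The fit was tested on simulated data with normal noise drawn independently for each gene. It recovered 37.2%, 82.3% and 96.6% of changes of log2 0.5, 1 and 2, and 5.31% of its calls were false. The simulation lacked the first principal component that held 58.4% of the variance of the libraries. Named genes were Hectd3, the 8 members and their transcripts, the nearest table genes beside and between them, family members by symbol, the 5 genes with the nearest profile, and of the other interferon-stimulated genes the 3 with the smallest p each way. The members and lists were chosen with earlier results of these data known. Alternatives were pseudocounts, filters, TPM, median-ratio and quantile scaling, limma options, an ordinary linear model with library size, the replicate block, single transcripts and leaving out each library; the principal component covariate and the comparison without 3 libraries were chosen after seeing the data. Promoter windows are those of RefSeq.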

Additional observations from a re-analysis of the deposited data

Results flagged for a closer look

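In 66 groups of 4 libraries, for the genes, transcripts and ratios named in the report, the gap between the most extreme library and its nearest neighbour was compared with the range of the group; 9 groups had a gap above the 95% critical value of Dixon's test, and chance flags about 1 in 20 groups. In HectD3 4, Ifit1bl was at 5.75 FPKM, against 18.4 to 20.5 FPKM in the other HectD3 libraries. The ratios of Ifit2 to Ifit1bl (6.72, against 1.38 to 1.95) and of Ifit3 to Ifit1bl (6.59, against 1.19 to 1.71) in HectD3 4 carry the same low value. Rsad2 was at 11.1 FPKM in HectD3 4, against 6.74 to 7.27 FPKM. In LacZ 1, Mx2-202 was at 272 FPKM, against 7.76 to 8.66 FPKM in the other LacZ libraries. In the same library Parp12 was at 27.2 FPKM, against 23.1 to 23.5 FPKM, and Uba7 at 19.7 FPKM, against 11.9 to 12.9 FPKM. Oasl2 was at 19.9 FPKM in HectD3 3, against 27.2 to 28.1 FPKM, and Lipa at 39.1 FPKM in LacZ 2, against 33.4 to 34.2 FPKM. These libraries include those that stood apart on the first principal component, and the part of that split in the values was not tested.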

How the results depend on the processing

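The count of 7 members lower at an unadjusted p under 0.05 was 7 under all 23 alternatives, and the 7 that did not overlap were 7 under all 15 where this was counted. The number past an adjusted p of 0.05, 0 at first, was 1 with TPM, with a minimum mean of 5 FPKM, with quantile or median-ratio scaling, or with the covariate (the first principal component), and 3 with library weights or with LacZ 3 and 4 against HectD3 1 to 3; leaving out 1 library gave 0 to 2. An ordinary linear model with library size gave 0 members and, for Hectd3, 5.84 with an adjusted p of 0.190, so that 0 higher genes passed. Mx1 passed at -1.03 (mean of at least 5 FPKM, adjusted p = 0.0492), -1.09 (TPM), -1.01 (median-ratio), -1.05 (quantile), -1.07 (library weights), -1.14 (LacZ 3 and 4 against HectD3 1 to 3) and -0.98 (the covariate). Ifit3 passed at -0.89 and -0.98 and Rsad2 at -0.82 and -0.89, with library weights and with LacZ 3 and 4 against HectD3 1 to 3. The cause was not tested.

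The median of the members, -0.80, was -0.68 in the ordinary linear model and with the covariate. Ifit1bl turned to -0.02 in the ordinary linear model and -0.10 with the covariate, Mx2-202 on its own was at 0.19, and the Mx1 to Mx2 log2 ratio with the most abundant transcript at 0.14. At an unadjusted p under 0.05, the fit of all genes had 538 in the lower direction and 361 in the higher. Lower genes were 324 with a mean of at least 5 FPKM, where only 8761 genes were tested in place of 12567. Higher genes were 176 with TPM, 769 with library weights, 741 in the ordinary linear model, 644 with LacZ 3 and 4 against HectD3 1 to 3, and 979 with the covariate. Past the adjusted p, the lower genes, 0 at first, were 1 with a mean of at least 5 FPKM or TPM, 2 with median-ratio, quantile or the covariate, 9 with library weights and 4 with LacZ 3 and 4 against HectD3 1 to 3; the higher genes, 1 at first, were 2 with library weights and 4 with that subset.

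The replicate numbers are shared by the groups, but nothing in the labels says that a number marks a shared culture. Deviations of same-numbered libraries correlated at -0.37, -0.01, 0.34 and -0.61. LacZ 1 and LacZ 2, which stood apart on the first principal component with HectD3 4, each correlated with it at 0.54. Because these correlations follow that split, they cannot show whether a number marks a shared culture. With the replicate block, 7 members were still lower at an unadjusted p under 0.05, where 450 of all 12567 genes were lower and 167 higher.

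Leaving out each library in turn moved the lower genes from 329 (without LacZ 2) to 865 (without LacZ 3), with 349 without LacZ 1, and the higher genes from 220 (without LacZ 1) to 442, and those past the adjusted p from 0 to 3 and from 1 to 2. It moved the members' median from -0.89 to -0.69, Mx1 from -1.13 to -0.95, Mx2 from -1.01 to -0.76, Ifit1bl from 0.13 to 0.81, Ifit2 from -0.57 to -0.42, Ifit3 from -0.93 to -0.73, Rsad2 from -0.97 to -0.70, Cmpk2 from -0.79 to -0.61, Ifi44l from -0.86 to -0.67 and Hectd3 from 5.54 to 6.37. Mx1 (adjusted p = 0.0146) and Ifit3 (0.0468) passed without HectD3 4. The difference in log2 ratio ran from -0.14 to 0.03 for Rsad2 to Cmpk2, the latter without LacZ 1 or HectD3 2, from -0.26 to -0.08 for Mx1 to Mx2, from 0.30 to 0.37 for Ifit2 to Ifit3, from -1.84 to -1.02 for Ifit3 to Ifit1bl and from -1.47 to -0.66 for Ifit2 to Ifit1bl. With 4 libraries against 3 the permutation p cannot go below 0.0571. Since the depth is unknown, no level can be given below which a gene such as Ifit1 would go undetected.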

Other observations

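The genes outside the set nearest to the profile of Ifit1bl, looked for after its values were seen, were Sik1 (distance 0.17), Stk38l (0.18), Vwa7 (0.19), Dusp8 (0.20) and Enah (0.21), none of them known as interferon-stimulated. Sik1, a salt-inducible kinase, was at 4.00, 3.75, 13.2 and 14.9 FPKM in LacZ 1 to 4 and at 12.5, 11.7, 11.5 and 2.86 FPKM in HectD3 1 to 4. Enah, a regulator of actin filaments, was at 75.3, 79.3, 283 and 304 FPKM and at 292, 288, 344 and 88.6 FPKM in the same order. The cardiac actin gene Actc1 was also low in these libraries, at 3229 FPKM (LacZ 1), 3149 FPKM (LacZ 2) and 4853 FPKM (HectD3 4), against 7084 to 9411 FPKM in the others. All of these genes had overlapping groups, and no test was made of a set chosen in this way.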
